A study of Mus musculus with 4 samples.

Results

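The genes of retinoic acid synthesis, breakdown and reception were examined in ATAC-seq peak lists of mouse palatal mesenchyme. ATAC-seq uses a transposase that cuts open DNA, so a peak marks an accessible stretch of chromatin. The 10 genes were 4 enzymes (Aldh1a2, Aldh1a3, Cyp26a1 and Cyp26b1) and 6 receptors (Rara, Rarb, Rarg, Rxra, Rxrb and Rxrg), chosen by role. Peaks of the 4 libraries that shared at least 1 bp were merged into 39843 regions. A region belonged to a gene when that was the nearest protein-coding gene to its midpoint, within 100 kb in mm10. By this rule 46 regions belonged to the 10 genes, 9 to the enzymes and 37 to the receptors.

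Green fluorescent palatal cells were sorted from embryos at E14.5, with 50000 cells pooled per group. The 2 control libraries were Shox2Cre/+;Nkx2.5F/F;R26RmTmG and the 2 mutant libraries Shox2Cre/-;Nkx2.5F/F;R26RmTmG. In both genotypes Cre from the Shox2 locus turned on the R26RmTmG reporter, and both carried a pair of floxed Nkx2.5 alleles that Cre can cut, so the controls were not wild type. The controls kept 1 intact allele of Shox2, a homeobox gene of the anterior palate, and the mutants 0. The series asks whether Shox2 is needed for accessible chromatin in this lineage. Nothing in the labels ties the libraries of a group to separate litters or pools, so the spread between them may be technical.

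The control lists held 30225 and 22959 peaks on chromosomes 1 to 19 and X, and the mutant lists 29217 and 31821. The lists give no read depth, and the depth is unknown. Of the mesenchyme markers, 6 of 8 (all but Shox2 and Pdgfra) had a region called in all 4 libraries. So did 3 of 6 epithelial, 2 of 4 endothelial, 2 of 4 blood, 0 of 4 skeletal muscle and 3 of 4 neuronal and glial markers. Over all protein-coding genes the share was 56.3%, and each marker set is small. The keratin gene Krt14 and the blood genes Tyrobp and Hbb-bt had no region, while the epithelial gene Epcam and the endothelial gene Cdh5 each had 3 in all 4 libraries. The part of other cells in the results below was not tested. No region of Shox2 followed genotype: the one inside the gene was called in control 1, mutant 1 and mutant 2, so these lists do not check the genotypes.

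Retinoic acid is made from retinal by the ALDH1A dehydrogenases and broken down by the CYP26 hydroxylases, so their balance sets how much of it a cell sees. It enters the nucleus and binds the receptors RARA, RARB and RARG, which sit on DNA paired with a retinoid X receptor (RXRA, RXRB or RXRG). The pair reads direct repeats of a 6-base half-site, most often spaced by 5 bases, and several genes of the pathway, Rarb and Cyp26a1 among them, are themselves classic targets. Excess retinoic acid in the embryo is known to cause cleft palate.

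The sequences before 4 of the start sites are shown because they carry the receptor element (Rarb and Cyp26a1) or set a start called in all 4 libraries (Rxrg) beside one called in 2 (Aldh1a2). They are the 250 bases upstream of the start in RefSeq's GRCm38.p6, the assembly behind mm10, written 5′ to 3′ on the strand of the gene, with the half-sites of any repeat in capitals. The repeats searched, on both strands, were any 2 half-sites in the same direction, spaced by 1, 2 or 5 bases (DR1, DR2 and DR5). A half-site was AGGTCA or AGTTCA or GGGTCA or GGTTCA.
Rarb, chr14:16575477-16575726, minus strand: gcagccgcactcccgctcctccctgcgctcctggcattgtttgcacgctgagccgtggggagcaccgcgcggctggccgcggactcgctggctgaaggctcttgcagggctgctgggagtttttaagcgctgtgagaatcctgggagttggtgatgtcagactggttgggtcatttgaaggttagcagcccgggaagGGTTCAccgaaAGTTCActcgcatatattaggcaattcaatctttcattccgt
Cyp26a1, chr19:37697558-37697807, plus strand: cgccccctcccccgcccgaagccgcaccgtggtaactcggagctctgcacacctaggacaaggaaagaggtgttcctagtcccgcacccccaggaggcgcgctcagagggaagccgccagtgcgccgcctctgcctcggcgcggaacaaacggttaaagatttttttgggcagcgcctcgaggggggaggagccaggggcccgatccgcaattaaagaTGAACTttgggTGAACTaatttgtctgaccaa
Aldh1a2, chr9:71215539-71215788, plus strand: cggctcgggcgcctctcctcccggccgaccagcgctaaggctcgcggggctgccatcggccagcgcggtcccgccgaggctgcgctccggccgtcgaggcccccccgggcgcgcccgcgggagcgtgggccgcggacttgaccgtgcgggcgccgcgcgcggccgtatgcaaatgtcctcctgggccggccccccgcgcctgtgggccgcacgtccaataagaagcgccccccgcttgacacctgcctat
Rxrg, chr1:167598112-167598361, plus strand: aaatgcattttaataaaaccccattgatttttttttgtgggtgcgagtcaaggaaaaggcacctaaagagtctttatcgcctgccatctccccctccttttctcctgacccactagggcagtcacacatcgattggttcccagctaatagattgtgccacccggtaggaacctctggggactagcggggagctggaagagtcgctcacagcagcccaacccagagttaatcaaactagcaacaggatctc

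Rarb and Cyp26a1 each held 1 DR5 element close to the start. That of Rarb lay 53 to 37 bases before the start on the strand of the gene, and that of Cyp26a1 32 to 16 bases before it on the other strand. Read along their own strand and counted from 1 at the 5′ end, the 17-base elements differed at 2 positions, G1A and G9C from Rarb to Cyp26a1. RefSeq start windows, which run from 250 bases before to 50 after a start, were at hand for 9 of the 10 genes (16 windows, none for Aldh1a3). The DR5 pattern was in 2 of these 16 windows and in 0.0981% of all 32619 windows, and DR1 and DR2 were in none of the 16 (0.224% and 0.270% of all). A match describes the letters and is not a measured binding site.

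Each receptor had a start called in all 4 libraries, and no enzyme with a window did. All 6 receptor genes, Rara through a region that the distance rule gives to an overlapping gene, had a start window over a region called in all 4 libraries, and 0 of the 3 enzyme genes with a window did. The receptors had 13 windows, of which 8 were over such a region and 5 were not (2 at Rara and 1 each at Rarg, Rxra and Rxrg), while each of the 3 enzymes had 1, so the receptors had more chances to count. Over all genes of the reference table the share was 40.1%. At equal peak numbers (the top 22959 of each list) the counts were 5 receptors and 0 enzymes, the difference being Rara. In the upper 50% of each list 2 receptors were left, Rarb and Rxrg. The strength of a peak is given below as its percentile, the rank of the authors' score within its own library, where 100 is the strongest. A lower rank may mean fewer cells with the site open or less cutting per cell, and these cannot be told apart.

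Of the 2 starts with a DR5 element, that of Rarb was called in all 4 libraries and that of Cyp26a1 in none. At Rarb (chromosome 14, 16430839 to 17082331) the region over the start, at 16574835 to 16576029, ranked at percentile 64.1 (control 1), 50.3 (control 2), 62.1 (mutant 1) and 67.6 (mutant 2). The genotypes overlapped, and control 2 ranked lowest. The summits of the peaks lay 29, 114, 78 and 26 bases before the start in the same order of libraries, so the element, at 53 to 37, fell within their spread. At Cyp26a1 (chromosome 19, 37697738 to 37701536), whose hydroxylase is strongly induced by retinoic acid, no library held a peak over the window with the element. Its only region, 1.11 kb outside the gene, was called in control 1 alone, at percentile 4.28. Of the 32 windows with DR5 in the whole table, 4 lay over a region called in all 4 libraries (12.5%), against 38.3% of all windows.

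The members' windows varied in base composition, with some overlap between called and uncalled starts. Member windows over a region in all 4 libraries had 10 (Rarg) to 55 (Rxra) CpG. Those over no region had 1 (Rxra) to 26 (Cyp26a1). Apart from Cyp26a1, the latter had at most 9 CpG, fewer than any member window called in all 4 libraries. Over all genes, windows over a region in all 4 libraries had a median of 62.3% G and C and 22 CpG, and windows over no region 47.7% and 3. The window of Aldh1a2, with 78% and 50 CpG, was called in 2 libraries only, while that of Rxrg, with 53.7% and 13, was called in all 4. The windows of Cyp26a1 and Cyp26b1 had the same 62.3% G and C, with 26 and 9 CpG, and neither was called in any library.

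**Figure D1:**
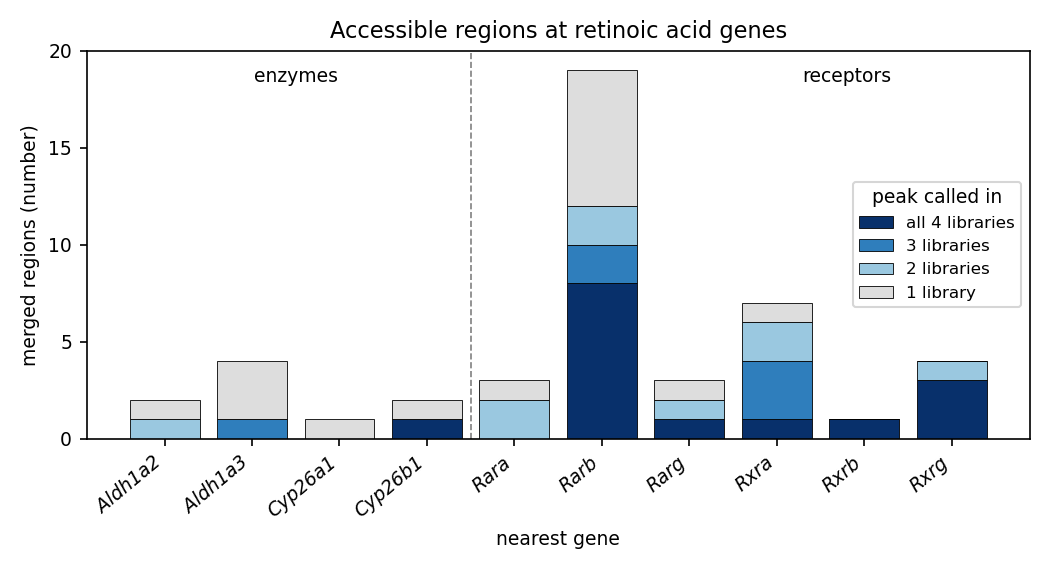
Bars give the number of merged regions whose nearest protein-coding gene is the one named, coloured by the number of libraries with a peak there. Rarb holds 19 of the 46 regions and 8 of the 15 called in all 4 libraries, and of the 4 enzymes only Cyp26b1 has a region of that kind.

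The enzyme regions were mostly weak and seldom called in all 4 libraries. Of their 9 regions 1 was called in all 4 libraries and 6 in a single library, and of the 37 receptor regions 14 and 10 were. Over all merged regions 47.4% were called in all 4, and over all assigned regions 50.4%. Regions in a single library made up 66.7% of the enzyme regions, 27.0% of the receptor regions and 22.3% of all assigned regions. Regions at the enzymes numbered 1.57 per 100 kb of the sequence nearest to them, against 3.11 at the receptors and 1.87 over all genes. For regions called in all 4 libraries these values were 0.175, 1.18 and 0.940. The enzymes stood lower on both scales, and the receptors stood above all genes. Counted per gene the enzymes were not low, with a median of 2 regions against 1 over all genes, and Aldh1a3 had more regions than 87.9% of genes.

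Aldh1a2 (chromosome 9, 71215789 to 71296243), which makes most of the retinoic acid of the early embryo, had a region over its start at 71215101 to 71216006. It ranked at percentile 16.4 in control 2 and 10.6 in mutant 1, with no call in control 1 or mutant 2. The calls thus fell in 1 library of each genotype. A second region, 69.3 kb away, was called in mutant 1 only, at percentile 14.0. Aldh1a3 (chromosome 7, 66390892 to 66427477), the dehydrogenase of the eye and nose, had a region over a gene end at 66426855 to 66428077. Its percentiles were 25.9 in control 1, 18.2 in control 2 and 16.1 in mutant 2, with no call in mutant 1. The other 3 regions of Aldh1a3 lay 15.3 to 24.6 kb away, each in a single library, at percentiles of 2.15 to 6.43. No region of either dehydrogenase was called in all 4 libraries.

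Cyp26b1 (chromosome 6, 84571414 to 84593908), the hydroxylase known to clear retinoic acid from limb and craniofacial tissue, had the strongest region of the enzymes. It lay 33.5 kb outside the gene, at 84537472 to 84538298, and ranked at percentile 56.9 and 46.8 in controls against 58.3 and 40.7 in mutants. The mutants held both the highest and the lowest value, so the genotypes overlapped. The authors' fold enrichments there were 8.81, 8.07, 8.03 and 6.24. The next protein-coding gene, Exoc6b, was 80.6 kb from this region. A region inside Cyp26b1 was called in control 1 only, at percentile 20.4. Beyond the limit of 100 kb, a region 157 kb from Cyp26b1, its nearest gene (84414147 to 84414943), reached percentiles of 82.3 and 75.3 in controls against 89.6 and 86.5 in mutants, higher than any enzyme region within the limit. The farthest region within the limit was one of Rarb at 90.4 kb, and the nearest one beyond it was one of Aldh1a3 at 104 kb, called in mutant 2 alone at percentile 4.79.

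In the full lists the median enzyme region ranked below the median receptor region in each of the 4 libraries, over 3 to 5 enzyme regions a library. The median percentile of the enzyme regions was 20.4 and 18.2 in controls against 12.3 and 16.1 in mutants. For the receptor regions it was 41.8 and 32.4 in controls against 32.4 and 44.5 in mutants. Over all assigned regions the medians were 52.9, 53.0, 53.3 and 53.0, so both groups ranked below the typical region. The receptor medians rest in part on Rarb: without it they were 38.9, 30.8, 31.9 and 31.3, still above the enzymes in each library. The gap of enzymes minus receptors was −21.5 and −14.2 points in controls against −20.1 and −28.5 in mutants, a mutant minus control difference of −6.47 points (exact permutation p = 0.667, two-sided). At equal peak numbers the order was reversed in mutant 1, where Cyp26b1 was the only enzyme region left, at 46.9 against a receptor median of 29.1. In the other libraries the enzyme medians, over 1 to 3 regions, were 22.9 (control 1), 18.2 (control 2) and 17.7 (mutant 2) against receptor medians of 33.3, 32.4 and 41.7. The mutant minus control difference of the gap was then 9.20 points (exact permutation p = 1), and it was −2.73 with peaks ranked by enrichment and −1.85 without Rarb.

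**Figure D2:**
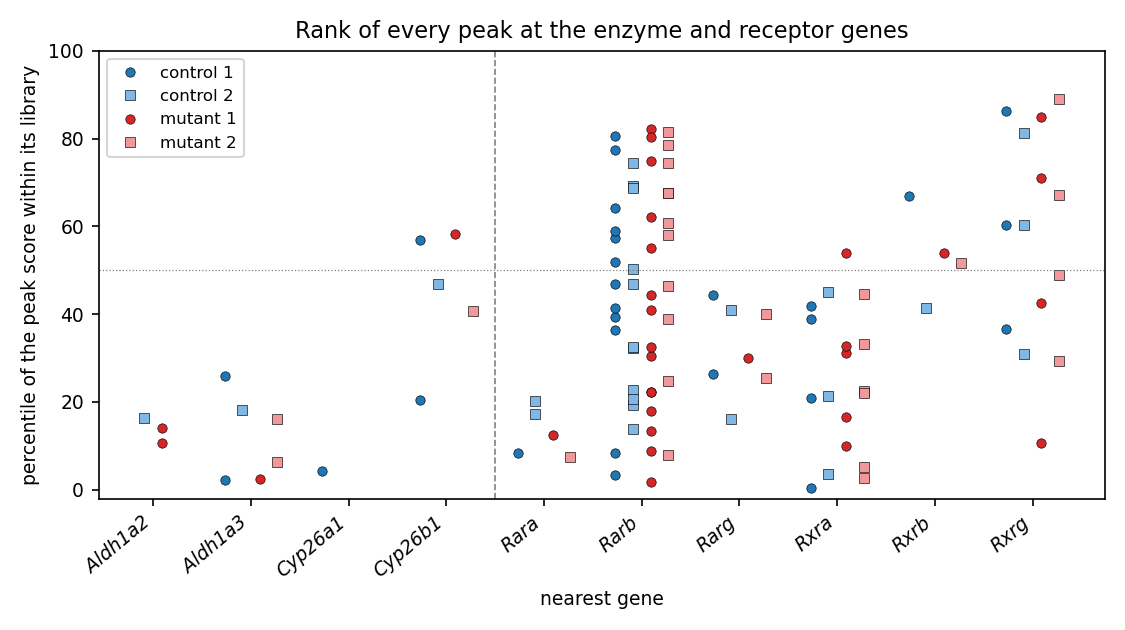
Each point is the strongest peak of 1 library in 1 region, placed by its percentile within that library (100 is the strongest) and by the nearest gene, with controls in blue and mutants in red. Enzyme points other than those of Cyp26b1 lie at or below 25.9, and the receptor points spread up to 89.1 at Rxrg.

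Of the receptors, Rarb, whose product is itself induced by retinoic acid, had the most regions. It held 19, of which 8 were called in all 4 libraries, 2 in 3, 2 in 2 and 7 in 1. Of 21627 protein-coding genes, 28 had at least 8 regions in all 4 libraries, Rarb included. The gene is long: it spans 651 kb and had 2.53 regions and 1.06 regions in all 4 libraries per 100 kb, against 1.87 and 0.940 over all genes. All but 1 of the regions lay inside the annotated gene, and 0 lay within 1 kb of either end. The RefSeq start used here, with the DR5 element, is internal to the annotated gene.

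The strongest Rarb region lay outside the gene. It was 597 kb upstream of the start and 90.4 kb from the gene, at 17172126 to 17173337, between Rarb and the thyroid hormone receptor gene Thrb at 486 kb. Its percentiles were 80.5 (control 1), 74.5 (control 2), 80.4 (mutant 1) and 81.5 (mutant 2). Control 2, the shortest list, ranked lowest. At equal peak numbers the same values were 74.3, 74.5, 75.0 and 74.4, a range of 0.690 points, and 1.64% of 17202 regions in all 4 libraries had a narrower range. The summits of its peaks lay within 46 bp of each other.

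Downstream of the start, inside the transcribed part, the strongest region was at 16509740 to 16511160, −65.0 kb on a scale where upstream of the start is positive. Its percentiles were 77.3 and 69.2 in controls against 82.2 and 78.5 in mutants, so both mutants were higher. With equal peak numbers they were 70.1 and 69.2 against 77.4 and 70.2, where control 1 and mutant 2 were nearly level and mutant 1 stood apart. A weaker region at −20.7 kb (16554021 to 16555518) ranked at 58.9 and 32.2 in controls against 44.3 and 67.7 in mutants, with overlapping genotypes. The region nearest to the 3′ end (16432892 to 16433952) was called in 3 libraries, at 57.4, 30.4 and 57.9, and not in control 2. Its midpoint lay inside Rarb, 2.583 kb from that end and 2.635 kb from the neighbouring gene Top2b, so it cannot be given to Rarb alone.

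Upstream of the start and inside the gene, 4 regions were called in all 4 libraries. The region at 16678173 to 16679170, 103 kb upstream, had percentiles of 51.9 and 68.8 in controls against 74.8 and 74.4 in mutants. Both mutants were higher, but with equal peak numbers the values were 36.7 and 68.8 against 67.9 and 64.5 and the genotypes overlapped. The region at 16964742 to 16965712, 390 kb upstream, had percentiles of 41.4 and 20.6 in controls against 55.0 and 60.8 in mutants. Here the mutants were also higher with equal peak numbers, at 42.8 and 45.6 against 22.9 and 20.6. The authors' fold enrichments at this region were 5.68 and 5.08 in controls against 6.34 and 6.22 in mutants. Of the 14 member regions called in all 4 libraries with equal peak numbers, it was 1 of 2 with both mutants higher, with the wider gap of the pair, and it was singled out after its values were seen.

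Of the remaining upstream regions called in all 4 libraries, the one at 16597922 to 16598828, 22.9 kb upstream, ranked at 46.8 and 32.5 in controls against 32.4 and 24.8 in mutants. Both controls were higher, though control 2 and mutant 1 were nearly level, and mutant 2 had no call there with equal peak numbers. The region 202 kb upstream (16776518 to 16777520) ranked at 39.4 and 19.3 in controls against 40.9 and 38.8 in mutants, with overlap. The 7 regions of Rarb called in 1 library ranked at percentiles of 1.67 to 22.3, and 5 of them came from mutant 1.

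**Figure D3:**
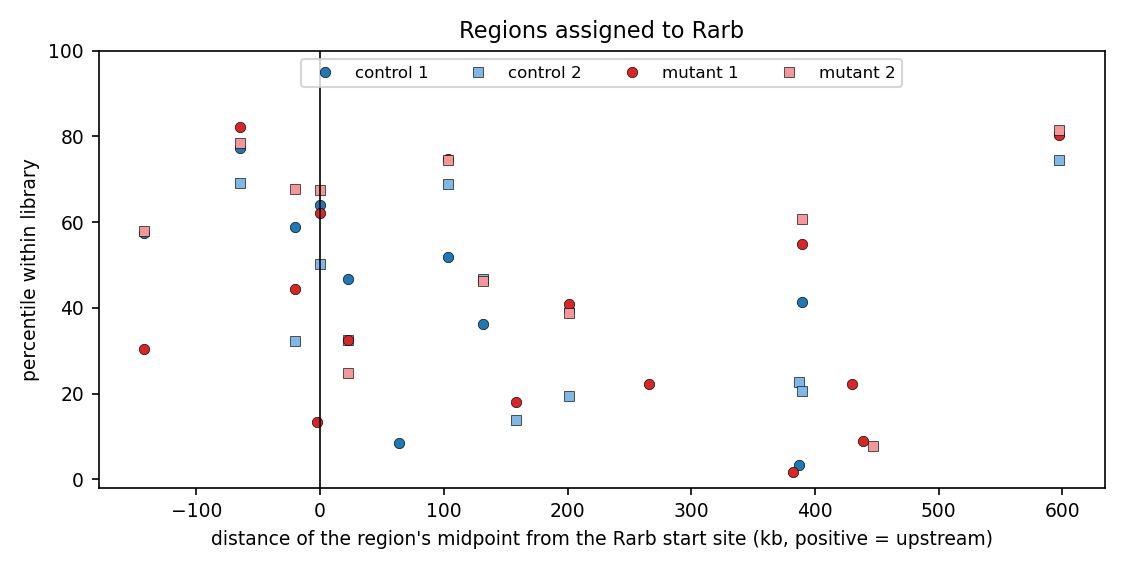
Points give the percentile within its library of each peak assigned to Rarb, by the distance of the region's midpoint from the start site in kb (positive is upstream, and the vertical line marks the start). Regions called in all 4 libraries run from −65.0 to 597 kb, and the outermost one upstream lies between 74.5 and 81.5 in all 4 libraries.

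Rara (chromosome 11, 98927800 to 98974942), the most widely expressed of the RAR genes, had 3 regions and none called in all 4 libraries. The region over its start (98937303 to 98938639) overlaps the predicted gene Gm46294 and belonged to that gene by the rule. It was called in all 4 libraries, at percentiles of 58.7 (control 1), 10.9 (control 2), 39.0 (mutant 1) and 17.9 (mutant 2). Both mutants lay between the controls. Just upstream of it, a region at 98936017 to 98936555 was called in both controls, at 8.36 and 20.2, and in neither mutant. At equal peak numbers only control 2 kept that call. The member region of Rara with the highest mean rank (98963263 to 98964172) was called in control 2 at 17.2 and mutant 1 at 12.6, and in neither of the other libraries.

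Rarg (chromosome 15, 102234938 to 102257522), the RAR gene of skin and cartilage, was open at an internal start. The region at 102246162 to 102248146 covered the start of a shorter transcript and ranked at 44.3 and 41.0 in controls against 30.1 and 40.1 in mutants. Both controls were higher, by less than 1 point between control 2 and mutant 2 in the full lists. With equal peak numbers the values were 26.7 and 41.0 against 11.0 and 17.0. Its summits lay 593 to 596 bases before that start, within 3 bp of each other in the 4 libraries. At the start of the longer transcript a peak was called in control 1 only, at percentile 26.3.

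The RXR genes, which pair with the RARs and with other nuclear receptors, each had a region over the start in all 4 libraries. At Rxra (chromosome 2, 27676445 to 27763319) the region at 27675995 to 27677289 ranked at 41.8 and 45.0 in controls against 32.7 and 33.2 in mutants. Both controls were higher, in the full lists and with equal peak numbers, where the values were 23.4 and 45.0 against 14.4 and 7.48. The authors' fold enrichments were 4.61 and 5.28 in controls against 4.23 and 4.002 in mutants. The summits lay at 27676225 to 27676348, outside the annotated gene and 853 to 976 bases before the RefSeq start. This region had the widest range of the 14 member regions with equal peak numbers, 37.5 points, and 96.7% of shared regions had a narrower one.

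Rxra also had 2 of the 3 regions called in both mutants and neither control. One lay 26.4 kb outside the gene (27649699 to 27650466), at percentiles of 31.2 in mutant 1 and 5.20 in mutant 2. The other lay inside the gene (27739778 to 27740630), at 9.89 and 2.78. Both were thus near the bottom of the list of mutant 2. A region 11.2 kb outside the gene (27774087 to 27775038) ranked higher, at 38.9 in control 1, 53.9 in mutant 1 and 44.5 in mutant 2, and was not called in control 2.

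Rxrb (chromosome 17, 34031812 to 34038403), the RXR gene of most tissues, had 1 region, over its start, at 34031193 to 34032576. It ranked at 66.9 and 41.3 in controls against 53.9 and 51.6 in mutants, with both mutants between the controls. The zinc transporter gene Slc39a7 was 0.195 kb from its midpoint, so the region cannot be given to Rxrb alone.

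Rxrg (chromosome 1, 167598362 to 167639623), the RXR gene of muscle and brain, had the highest-ranked region of the 46. It lay 21.3 kb outside the gene at 167660283 to 167661524, with percentiles of 86.2 and 81.3 in controls against 84.8 and 89.1 in mutants. The genotypes overlapped, and with equal peak numbers the values were 81.9, 81.3, 80.7 and 84.9. The homeobox gene Lmx1a was 27.3 kb from it, only a little farther than Rxrg. The region over the start of Rxrg (167598069 to 167599088) ranked at 60.4 and 60.3 in controls against 70.9 and 67.1 in mutants. Both mutants were higher, but with equal peak numbers the values overlapped, at 47.9 and 60.3 against 63.0 and 54.4. A region 5.39 kb outside the gene was also higher in both mutants, at 36.6 and 30.8 against 42.5 and 48.9 in the full lists and with overlap at equal numbers. The last region called in both mutants and neither control lay 46.6 kb from Rxrg (167551435 to 167552127), at 10.6 and 29.4.

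Calls that followed genotype at the members stood among weak peaks, and the rank of such calls over all genes was not set beside them. Control-only regions, with a call in both controls and neither mutant, numbered 2 of 46, at Rara and at Rarb (16962205 to 16962869, percentiles 3.25 and 22.7), against 1.07% of all merged regions. Mutant-only regions numbered 3 of 46, at Rxra and Rxrg, against 4.47%. The highest rank among these 5 regions was 31.2, in mutant 1 at Rxra. When control 2 was dropped, control-only regions rose to 8 and mutant-only regions to 4. When mutant 2 was dropped, these counts were 5 and 10. Dropping control 1 kept the control-only count at 2 and raised the mutant-only count to 5. Dropping mutant 1 also kept the former at 2 and raised the latter to 6. With any library dropped, fewer libraries had to agree, and why the counts rose unevenly was not tested. At equal peak numbers there was 1 control-only region, over the end of Aldh1a3 (background 2.14%), and 0 mutant-only regions (background 2.39%). None of the 5 was kept. The cut drops the lowest-ranked peaks of the longer lists, and each of the 5 had a call there. Their loss therefore adds nothing to their ranks.

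Of the 15 member regions called in all 4 libraries, 7 overlapped between genotypes in the full lists, a smaller share than over all regions of this kind. With equal peak numbers 10 of 14 overlapped, near the share over all regions of this kind that the backgrounds below leave. In the full lists both mutants ranked higher in 5 of 15 (background 29.1%) and both controls in 3 of 15 (background 5.62%). Percentiles from lists of different length are not on one scale, and control 2 was the shortest. With equal peak numbers both mutants were higher in 2 of 14 (background 17.3%), both at Rarb, and both controls in 2 of 14 (background 18.0%), at Rarg and Rxra. The median range over the 4 libraries was 19.3 points for the 14 member regions and 12.5 for all regions of this kind.

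**Figure D4:**
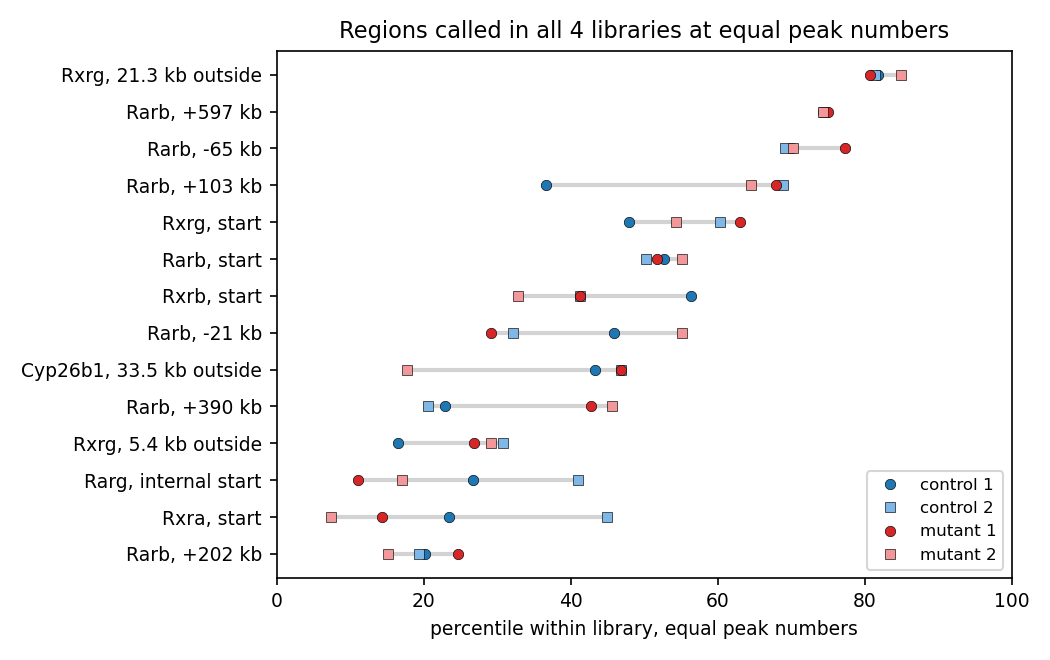
Each row is 1 of the 14 member regions called in all 4 libraries when the top 22959 peaks of each list are used, points give the percentile in each library, and grey bars span their range. Controls (blue) and mutants (red) do not overlap at the Rarb regions at 390 and −65.0 kb from the start, where the mutants are higher. At −65.0 kb control 1 and mutant 2 are nearly level, at 70.1 and 70.2. The genotypes also do not overlap at the Rxra and Rarg regions, where the controls are higher.

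The share of all peaks that fell at the 10 genes overlapped between genotypes. It was 9.26 and 10.9 per 10000 peaks in controls against 10.6 and 8.80 in mutants, a difference of −0.372 (exact permutation p = 0.667, adjusted p = 0.889 over 4 comparisons). At the enzymes it was 1.65 and 1.31 against 1.37 and 0.943, and at the receptors 7.61 and 9.58 against 9.24 and 7.86 (exact permutation p = 0.667 and 1, adjusted p = 0.889 and 1). The values of the genotypes overlapped in each case. With 2 libraries against 2 the exact test cannot give a p under 0.333.

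The place, calls, width, percentile and summit spread of the member regions were set beside those of all genes. Of the member regions 7 of 46 lay at gene ends (15.2%, against 32.6% of all assigned regions). Rarb held 0 of these, and without it the count was 7 of 27 (25.9%). Regions called in all 4 libraries made up 15 of 46 (32.6%), against 50.4% of all assigned regions. Those 15 had a median width of 1195 bp, against 1176 bp over all genes. Their median percentile was 56.9 and 45.0 in controls against 55.0 and 60.8 in mutants, against 70.2, 60.9, 69.0 and 71.6 for shared regions of all genes. Members thus ranked lower in each library, but not in each place. The 4 member regions outside genes ranked at medians of 68.7 and 60.7 in controls against 69.3 and 65.2 in mutants. They stood above the 54.9, 41.0, 54.1 and 57.9 of all shared regions of that place, which include those beyond 100 kb of any gene. The 8 member regions inside genes were lower in 3 libraries and higher in mutant 2, at 64.2 against 62.4, and the 3 at gene ends were lower in all 4. The 40 other pathway genes described next had medians of 56.9, 47.6, 55.3 and 58.4, close to those of the members. Summits of the 4 libraries spread over a median of 114 bp, against 99 bp for all shared regions.

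Other genes of the pathway, a list of 40 set by role, mostly held shared regions. A region called in all 4 libraries was present at 30 of the 40 (75.0%), against 6 of the 10 members (60.0%) and 56.3% of all genes. All 7 co-regulators, which carry the repressing or activating complexes of the receptors, and all 8 other receptors that pair with RXR had one. So did 3 of 5 genes of retinoid uptake and binding, 6 of 10 other retinoid enzymes and 6 of 10 known response genes. Among the other enzymes, Cyp26c1, the neighbour of Cyp26a1, had none.

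Calls following genotype at these 40 genes were 1 control-only region, inside Meis2, and 7 mutant-only regions of 116, beside shares of 1.07% and 4.47% over all regions. Dhrs3, which returns retinal to retinol and is induced by retinoic acid, had a mutant-only region inside the gene (chromosome 4, 144893859 to 144895373) at percentiles of 21.5 and 30.02. Cyp26c1 had one over a gene end (chromosome 19, 37692876 to 37693378) at 15.8 and 23.7. Further ones were at Adh7, Meis2, Rere and Thrb, with percentiles between 3.19 and 40.4.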

How the data were processed

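The authors deposited 1 peak list per library, in 10 columns without a header, on mm10 per the submitters' processing notes. Alignment, any shift of reads for the transposase, and the peak caller: not given in the sources used here. Each deposited score is 10 times the −log10 p of its peak, without decimals, in 99.99% to 100% of rows by list. The deposited −log10 p and −log10 q columns and the fold enrichment were read from their place in the authors' layout, and the background of the enrichment is not stated. All are values of single peaks, used to rank or describe within a list. Peak numbers in the deposited names skip: the rows are 27.8%, 23.8%, 25.8% and 26.7% of the highest number in each list, so an uncalled site is not shown to be closed.

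Merging at 1 shared bp, on chromosomes 1 to 19 and X, was done with Python 3.11.15 and pandas 2.3.3. Regions went to the nearest of 21627 protein-coding genes of RefSeq's GRCm38.p6 table by midpoint, within 100 kb, with a tie going to the gene with the nearer end. Sequence per gene was counted on a grid of 2 kb. The merging and assignment were tested on simulated data. Library values were compared by two-sided exact permutation over 4 libraries with Benjamini-Hochberg adjustment over 4 comparisons. Libraries with the same label number did not deviate together (correlation −0.0316 over 18904 shared regions). The rule for named genes was all 10 members, plus other pathway genes with a genotype-specific call, of which 1 is not reported here. Members and lists were chosen with earlier results of these data known. Sequences were from RefSeq, and no genome was used.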

Additional observations from a re-analysis of the deposited data

How the results depend on the processing

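With no read counts, depth could not be assessed, and it may limit any call. The genotype difference in peaks per 10000 could not pass a test in any setting, since the smallest possible exact permutation p was 0.333 (0.5 with a replicate block). The difference changed sign with the setting for all members and receptors. For enzymes 11 settings kept the sign, some only by repeating the main value, and 1 reversed it. With equal peak numbers it was −1.52 for all members and −0.871 for receptors (exact permutation p = 0.667 for each). For enzymes it was −0.653 with equal peak numbers, −0.496 with a limit of 50 kb and −0.392 with genes of any type (exact permutation p = 0.333 for each, the smallest possible). With the upper 50% of peaks it was 0.643 for all members (exact permutation p = 0.667), 0.0114 for enzymes (exact permutation p = 1) and 0.632 for receptors (exact permutation p = 0.333, the smallest possible). For receptors it was 0.234 with a limit of 50 kb, 0.234 with genes of any type and 0.0381 without Rarb. Leaving out 1 library gave −1.28 to 0.534 for all members, −0.538 to −0.111 for enzymes and −1.03 to 0.939 for receptors. The enzyme minus receptor difference was 9.20 with equal peak numbers, −2.73 with peaks ranked by enrichment, −1.85 without Rarb and −10.6 to −2.30 with 1 library left out, and it had no value in the upper 50% or with genes of any type, where a library held no enzyme peak. Control-only regions were 1 with equal peak numbers, 0 in the upper 50% and 1 without Rarb, and 2 to 8 with 1 library left out. Mutant-only regions were 0, 1 and 3 in those settings, and 4 to 10 with 1 library left out. Regions in all 4 libraries were 6 in the upper 50%, 7 without Rarb and 15 to 18 with 1 library left out. Receptor genes with an open start were 2 in the upper 50% and 6 with any 1 library left out, and enzymes 0 in each. Ranking by enrichment and the replicate block cannot change the peak counts, so their unchanged differences in peaks per 10000 test nothing. A stricter overlap of peaks gave the same values as the main setting. Counting regions that overlap a listed gene kept every direction, with the enzyme value unchanged. With a replicate block the difference for all members was −0.372 and no call changed (the smallest exact p is then 0.5). Leaving out Rarb, overlap with a listed gene, and all alternatives for open starts were chosen after the data were seen. For results that changed, the cause was not tested.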
